A study of Blattella germanica with 16 samples.

Results

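The genes described here are the catalases and superoxide dismutases of the German cockroach Blattella germanica, measured by RNA sequencing in the fat body, the insect organ that stores nutrients and makes hemolymph proteins. They were taken as every gene whose annotated product name contains "catalase" or "superoxide dismutase", which gave 19 of the 28676 genes in the expression table. Of these, 13 are catalases, 5 are superoxide dismutases and 1 is the copper chaperone for superoxide dismutase. Adult females had received double-stranded RNA (dsRNA), which triggers RNA interference against a matching transcript, in 2 injections of 2 µg spaced 7 days apart. The dsRNA was named for insulin receptor 1 (dsInR1), insulin receptor 2 (dsInR2) or insulin receptor 3 (dsInR3), or was the control dsRNA (dsMock), and each of these 4 groups had 4 libraries. Females carried an ootheca at the first injection, had it removed on day 12 and were dissected on day 5 of reproductive cycle 2 according to the series design, whereas the treatment protocol puts the injections 12 and 5 days before extraction. Each female was thus treated against 1 receptor at most. How many animals went into a library is not stated, so the p-values measure the spread between these libraries, which may be technical.

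Superoxide dismutases convert superoxide, a by-product of respiration and of many oxidases, into hydrogen peroxide and oxygen. Copper-zinc (Cu-Zn) forms work in the cytosol or outside the cell and need copper, which a chaperone can deliver. The manganese (Mn) form works in the mitochondrial matrix. Catalase, a heme enzyme that sits mainly in peroxisomes, breaks hydrogen peroxide down to water and oxygen, and peroxiredoxins and glutathione peroxidases reduce it by way of thiols. In insects the fat body is a main site of these enzymes, and in Drosophila and Caenorhabditis elegans the genes for several of them lie downstream of insulin signalling through the FoxO transcription factor.

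Libraries held between 15345964 and 23688522 reads assigned to genes. Levels are given as CPM, the counts of a gene relative to the size of its library, with library sizes adjusted by the TMM method, which corrects for a few very abundant transcripts. That correction matters here, because 1 transcript, C0J52_15443, took 0.000227 to 6.99% of the reads in dsInR2 libraries, 54.1 to 60.9% in dsInR1, 35.1 to 56.9% in dsInR3 and 51.1 to 58.8% in dsMock libraries. The 35.1% belonged to dsInR3 library 3, which also was the lowest or the highest of the dsInR3 libraries in several of the genes below. The annotation names a single insulin receptor, C0J52_14014, which had 48.9 ± 2.62 CPM in dsInR1, 5.90 ± 1.86 CPM in dsInR2, 38.5 ± 6.41 CPM in dsInR3 and 52.8 ± 1.70 CPM in dsMock (SD, n = 4 each), so the targeting of each of the 3 receptors could not be checked from these files. Tests used edgeR's quasi-likelihood method over all 10536 genes that passed a filter on low counts, and a gene was called where its adjusted p was under 0.05.

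Only part of the annotated set had reads assigned to it in this organ. Of the 13 catalase genes, 6 had 0 reads in all 16 libraries and 3 others had fewer than 100 reads over all libraries. Over the 4 libraries of a group, 0 reads allows at most 3 reads, or 0.0461 CPM in dsInR1, 0.0298 CPM in dsInR2, 0.0386 CPM in dsInR3 and 0.0451 CPM in dsMock, a limit that covers counting error only. Among the superoxide dismutases, the Cu-Zn gene SOD1 (C0J52_26481) had 14 reads in all, in 3 libraries. The filter was passed by 9 genes, namely 4 catalases, 3 Cu-Zn superoxide dismutases, the Mn superoxide dismutase and the copper chaperone. The other 10 were not tested. Because several catalase symbols differ only in the case of their letters, the catalases are named below by their locus tags.

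The 13 catalase genes lay on 7 contigs of the Bger_1.1 assembly, 9 of them on contigs with other catalases and 4 alone. Contig PYGN01000076.1 carried C0J52_01914 (2313859 to 2366739), C0J52_01915 (2413259 to 2420282) and C0J52_01916 (2443189 to 2465730) with no other gene between them, and C0J52_01927 (2818447 to 2832835) lay 352716 bases beyond, after 10 other genes. On that contig C0J52_01914 collected 1847144 reads over all libraries, C0J52_01915 none, C0J52_01916 93 and C0J52_01927 235. Contig PYGN01000058.1 carried C0J52_02757, C0J52_02758 and C0J52_02759 next to each other, at distances of 2195 and 1983 bases, and none of these had a read. C0J52_18697 and C0J52_18699 lay 12922 bases apart on contig PYGN01000733.1, with 112 and 5 reads. The second abundant catalase, C0J52_03955, stood apart from other members on contig PYGN01000141.1 (536238 to 566422), and collected 240253 reads. The others that lay alone were C0J52_17109 and C0J52_19930, with no read, and C0J52_24235, with 2. Whether reads that match several similar catalases were divided, dropped or counted more than once is not stated, so levels of the individual copies are uncertain to that extent.

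Catalase C0J52_01914 was a strongly expressed gene of the fat body outside dsInR2 and had very few reads in dsInR2. It had 11.3, 3.97, 24.0 and 2.89 CPM in dsInR2 libraries 1, 4, 7 and 8, against 10693, 9238, 11061 and 8077 CPM in dsMock libraries 1, 3, 4 and 5. The highest dsInR2 library therefore stayed far below the lowest dsMock library. The fitted change was -9.86 on the log2 scale (SE 0.78, 95% confidence interval -11.51 to -8.20, adjusted p = 1.73e-06), which makes the level 927-fold lower in dsInR2. Its share of all reads in a library averaged 0.00129% in dsInR2, 0.887% in dsInR1, 0.653% in dsInR3 and 0.886% in dsMock. Residual reads were present in every dsInR2 library, from 81 to 658, so the ratio does not rest on a count of 0. In bulk tissue, fewer cells of a type and less RNA per cell cannot be told apart, here and in the results that follow.

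Catalase C0J52_03955 moved in the opposite direction. Its level was 1221, 3001, 2136 and 519 CPM in dsInR2 libraries 1, 4, 7 and 8, against 224, 356, 309 and 262 CPM in dsMock libraries 1, 3, 4 and 5. All dsInR2 libraries lay above all dsMock libraries, but they spread widely, with the highest 5.78 times the lowest, against 1.59 times in dsMock. The rise was 2.58 on the log2 scale (SE 0.43, interval 1.67 to 3.49, adjusted p = 3.68e-04), or 5.98-fold. Its share of all reads averaged 0.228% in dsInR2 and 0.0257% in dsMock.

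**Figure D1:**
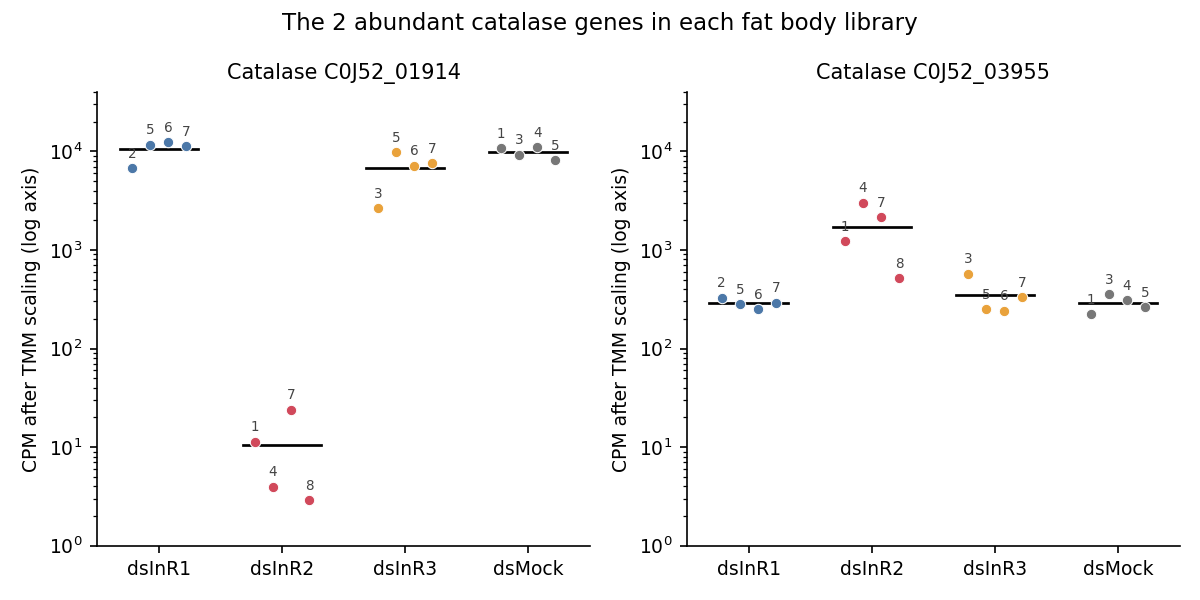
CPM of catalases C0J52_01914 (left) and C0J52_03955 (right) in each library, on a log axis, with the library number above each point and a black line at the mean of the 4 libraries. C0J52_01914 lies between 2.89 and 24.0 CPM in dsInR2 and at 2644 CPM or more in every other library, and C0J52_03955 is highest in dsInR2.

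The opposite changes of these genes altered which of them gave most catalase reads. Of the reads assigned to any catalase in a library, C0J52_03955 had 98.8, 99.8, 98.7 and 99.2% in dsInR2 libraries 1, 4, 7 and 8, against 2.05, 3.71, 2.72 and 3.14% in dsMock libraries 1, 3, 4 and 5. C0J52_01914 had 0.676 ± 0.430% of them in dsInR2 and 97.1 ± 0.700% in dsMock (SD, n = 4 each). These are shares of reads and not of transcripts per length, so they compare libraries and not the molar amounts of both genes. The rise of the second gene did not make up the loss of the first in summed CPM. All catalases together had 1236, 3006, 2163 and 523 CPM in dsInR2 libraries 1, 4, 7 and 8, against 10918, 9595, 11371 and 8341 CPM in dsMock libraries 1, 3, 4 and 5. Set against all superoxide dismutase reads of the same library, catalase reads were 9.66 ± 7.71 times as many in dsInR2 and 170 ± 19.7 times as many in dsMock (SD, n = 4 each).

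The remaining catalases stayed close to the limit of detection. C0J52_01927 had 2.87, 0.550, 1.17 and 1.32 CPM in dsInR2 libraries 1, 4, 7 and 8, against 0.448, 0.489, 0.352 and 0.671 CPM in dsMock libraries 1, 3, 4 and 5, and did not pass the test (log2 1.57, SE 0.997, adjusted p = 0.254). It had 14 to 57 reads in the dsInR2 libraries and 5 to 12 in the dsMock libraries. The filter on low counts was passed through dsInR2, so a high level there was a condition of testing this gene. C0J52_01916 was at 0 in 2 dsInR2 libraries and in 1 dsMock library, with at most 0.196 CPM in dsInR2 and 0.839 CPM in dsMock, and did not pass (log2 -2.30, SE 1.26, adjusted p = 0.181). C0J52_18697 failed the filter, with 62 of its 112 reads in dsInR2 library 7.

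All 3 tested Cu-Zn superoxide dismutases rose in dsInR2, and in each of them every dsInR2 library lay above every dsMock library. Sod_1 (C0J52_10008) had 123, 64.4, 73.2 and 72.6 CPM in dsInR2 libraries 1, 4, 7 and 8, against 7.72, 10.8, 16.9 and 6.93 CPM in dsMock libraries 1, 3, 4 and 5. It gained 2.98 on the log2 scale (SE 0.36, interval 2.20 to 3.75, adjusted p = 4.15e-05), or 7.87-fold, the largest rise in the set. Sod_0 (C0J52_06237) had 12.1, 7.19, 7.10 and 7.14 CPM in dsInR2 libraries 1, 4, 7 and 8, against 1.35, 1.68, 2.25 and 1.01 CPM in dsMock libraries 1, 3, 4 and 5. Its change was 2.42 (SE 0.28, interval 1.82 to 3.03, adjusted p = 2.91e-05), or 5.36-fold. SODC (C0J52_24129) had 84.5, 49.1, 101.5 and 50.4 CPM in dsInR2 libraries 1, 4, 7 and 8, against 15.7, 16.8, 27.3 and 20.2 CPM in dsMock libraries 1, 3, 4 and 5. Its change was 1.83 (SE 0.25, interval 1.31 to 2.36, adjusted p = 7.53e-05), or 3.57-fold. The annotated span of Sod_0 on contig PYGN01000117.1 (326919 to 327212) is only 294 bases, and its level followed that of Sod_1 over the 16 libraries (Pearson r = 0.97 of log2 CPM, which share the library and its scaling). The sequences of these genes were not compared, and a division of reads between them was not tested. Sod_0 may therefore not count as a gene independent of Sod_1.

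Neither the mitochondrial enzyme nor the copper chaperone passed the test in dsInR2. The Mn superoxide dismutase SOD2 (C0J52_07796) had 37.9, 27.5, 28.0 and 31.5 CPM in dsInR2 libraries 1, 4, 7 and 8, against 32.3, 27.5, 32.3 and 19.0 CPM in dsMock libraries 1, 3, 4 and 5. The groups overlapped, and the interval of the log2 difference, -0.23 to 0.56 around 0.17, ends below the change of each tested Cu-Zn gene (adjusted p = 0.532). The chaperone CCS (C0J52_15883), which loads copper into Cu-Zn superoxide dismutase, had 13.3, 8.17, 11.8 and 8.82 CPM in dsInR2 libraries 1, 4, 7 and 8, against 7.97, 6.15, 8.93 and 11.1 CPM in dsMock libraries 1, 3, 4 and 5. Its interval was -0.19 to 0.78 around 0.30 (adjusted p = 0.351). Within libraries, the Cu-Zn genes together had 5.80, 4.39, 6.49 and 4.13 times the reads of the Mn gene in dsInR2 libraries 1, 4, 7 and 8, against 0.767, 1.06, 1.44 and 1.48 times in dsMock libraries 1, 3, 4 and 5. The lowest dsInR2 library was thus above the highest dsMock library in this ratio.

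**Figure D2:**
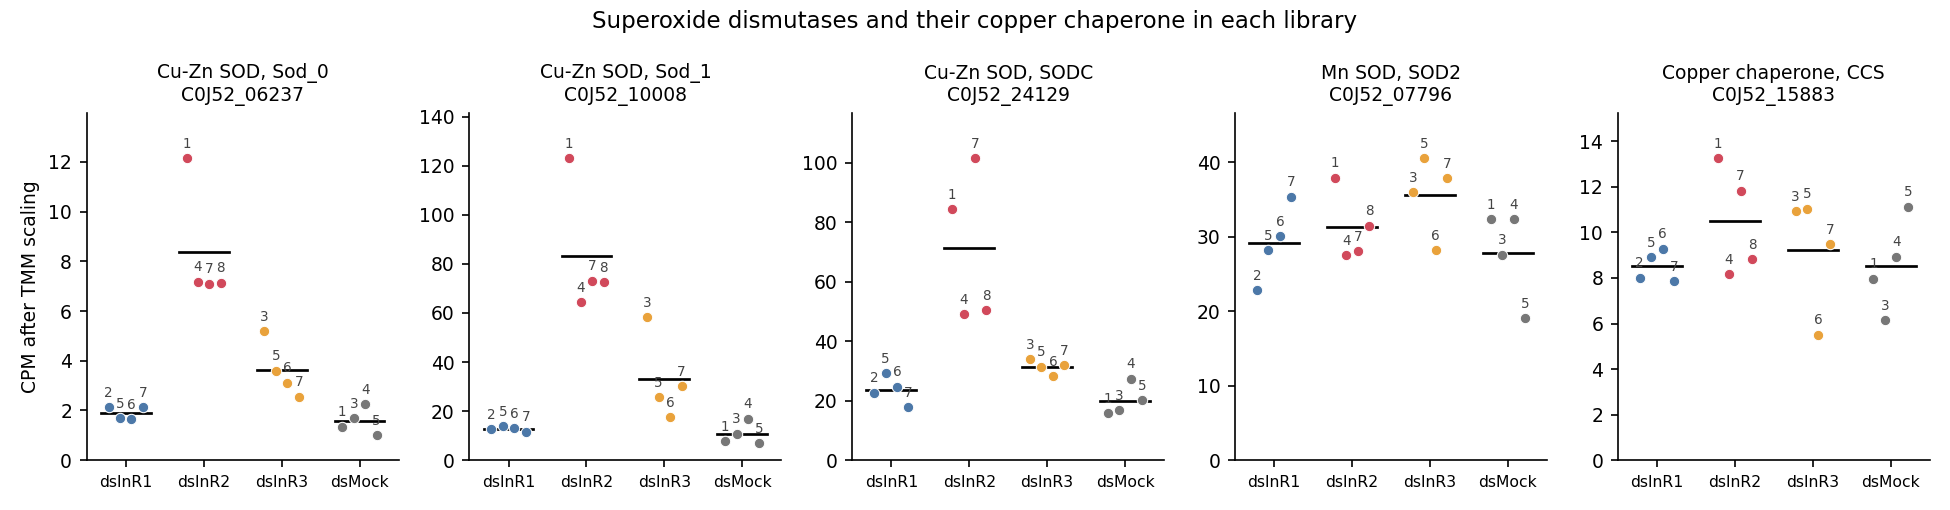
CPM of the 3 tested Cu-Zn superoxide dismutases, the Mn superoxide dismutase and the copper chaperone in each library, with library numbers above the points and black lines at the means of 4 libraries. The Cu-Zn genes are highest in dsInR2, with dsInR3 next, while the libraries of all groups overlap for SOD2 and CCS.

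Counted over the 9 tested genes, 5 were called in dsInR2 against dsMock, where 32.3% of all tested genes were called. Of these, 4 were higher in dsInR2 (17.6% of all tested genes) and 1 was lower (14.7%). The libraries of both groups did not overlap in 5 of 9 genes, against 30.1% of all tested genes. The median log2 change was 1.57 over the 9 genes and 0.04 over all tested genes. The members differ widely around that median, from -9.86 to 2.98. The 1.57 is the value of C0J52_01927, an uncalled catalase close to the limit of detection (SE 0.997) that passed the filter through dsInR2, so it is not a reliable typical change of the set. The same 5 genes were called in all 17 alternative analyses of this comparison.

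**Figure D3:**
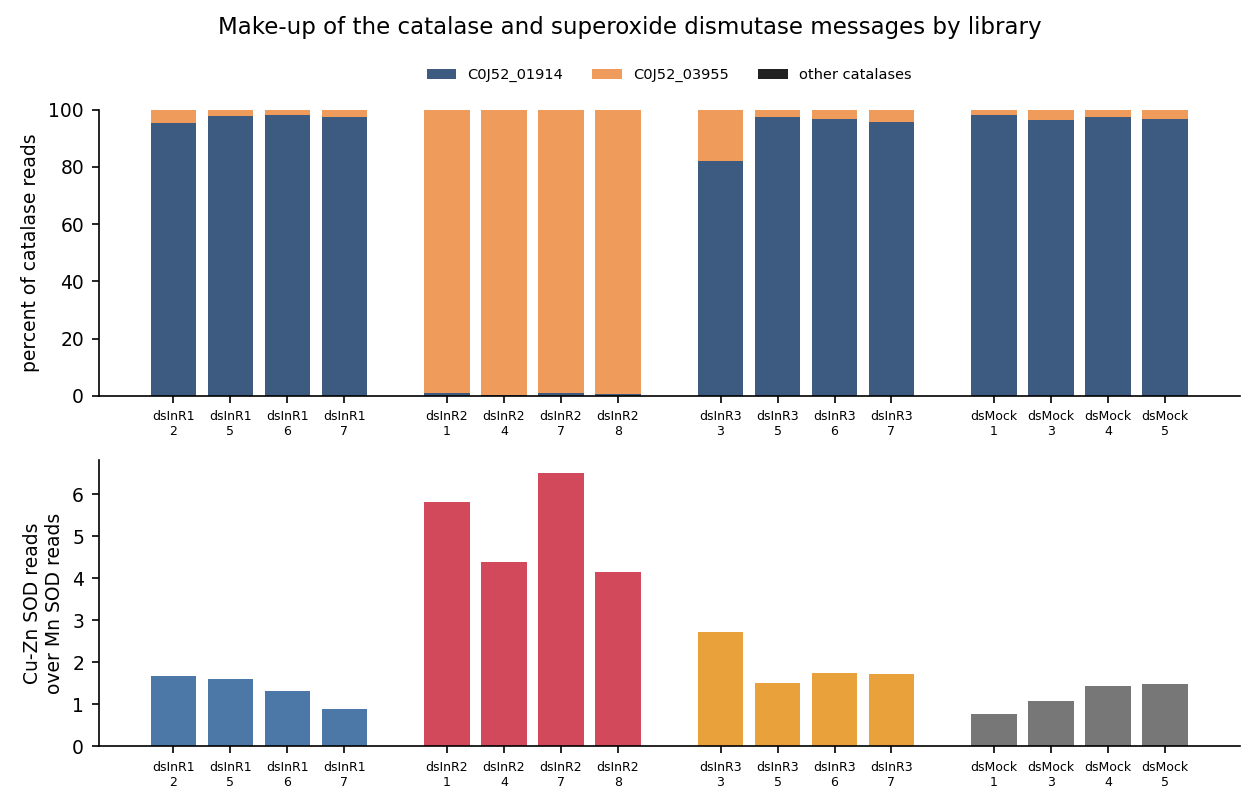
Percent of all catalase reads that came from C0J52_01914, C0J52_03955 and the other catalases (top), and the ratio of Cu-Zn to Mn superoxide dismutase reads (bottom), in each library. C0J52_03955 has 98.7 to 99.8% of catalase reads in dsInR2 and 17.8% in dsInR3 library 3, which also has the highest ratio outside dsInR2, 2.71.

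In dsInR3 none of the 9 genes was called by edgeR, against 0.304% of all tested genes. At an unadjusted p under 0.05 there were 3, DESeq2 called 2 and limma-voom called 1. Over all 10536 tested genes, 1546 had an unadjusted p under 0.05, DESeq2 called 443 and limma-voom called 53. The 3 members with an unadjusted p under 0.05 were the Cu-Zn superoxide dismutases. Each had all dsInR3 libraries above all dsMock libraries, a pattern found in 5.62% of all tested genes. Sod_1 had 58.3, 25.7, 17.4 and 30.1 CPM in dsInR3 libraries 3, 5, 6 and 7, all above the 16.9 CPM of the highest dsMock library. Its log2 difference was 1.64 (SE 0.35, interval 0.89 to 2.38, adjusted p = 0.0555) and its exact permutation p was 0.0286, the smallest that 4 against 4 libraries can give. DESeq2 gave Sod_1 an adjusted p of 4.8e-04, and without dsInR3 library 6 or without dsMock library 4 it passed in edgeR as well (adjusted p = 0.0244 and 0.033).

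Sod_0 had 5.20, 3.60, 3.12 and 2.56 CPM in dsInR3 libraries 3, 5, 6 and 7, against at most 2.25 CPM in dsMock, with a log2 difference of 1.22 (SE 0.28, adjusted p = 0.0616). It was called by DESeq2 (adjusted p = 0.006) and by edgeR without dsMock library 4 (adjusted p = 0.0469). SODC had 34.0, 31.4, 28.3 and 32.0 CPM in dsInR3 libraries 3, 5, 6 and 7, against at most 27.3 CPM in dsMock, with a log2 difference of 0.65 (SE 0.24, adjusted p = 0.209). Library 3 was the highest of the dsInR3 libraries in each of these genes. Without it, the log2 differences from dsMock were 1.21 for Sod_1, 0.99 for Sod_0 and 0.61 for SODC, with adjusted p-values of 0.183, 0.217 and 0.421.

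The catalases of dsInR3 overlapped those of dsMock. C0J52_01914 had 2644, 9813, 7159 and 7611 CPM in dsInR3 libraries 3, 5, 6 and 7 (log2 difference from dsMock -0.52, SE 0.53, adjusted p = 0.711). C0J52_03955 had 574, 251, 243 and 333 CPM in the same libraries (log2 difference 0.28, SE 0.40, adjusted p = 0.805). Library 3 was thus the lowest of its group in the first catalase and the highest in the second, and without it the differences were -0.25 and -0.06. SOD2 and CCS did not pass either, with differences of 0.36 (interval -0.037 to 0.75) and 0.11 (interval -0.37 to 0.60).

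In dsInR1 none of the 9 genes was called, and 0% of all tested genes were called by edgeR. None of the 9 had an unadjusted p under 0.05, and neither DESeq2 nor limma-voom called one. Over all tested genes, 347 had an unadjusted p under 0.05, DESeq2 called 7 and limma-voom called 0. C0J52_01914 had 6780, 11641, 12448 and 11231 CPM in dsInR1 libraries 2, 5, 6 and 7, and its interval for the log2 difference from dsMock ran from -1.02 to 1.24. C0J52_03955 had 328, 283, 251 and 291 CPM in the same libraries, with an interval of -0.85 to 0.86. The intervals of the superoxide dismutases were -0.46 to 1.01 for Sod_1, -0.32 to 0.90 for Sod_0, -0.27 to 0.75 for SODC and -0.33 to 0.46 for SOD2, so a rise of the size seen in dsInR2 lies outside each Cu-Zn interval.

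**Figure D4:**
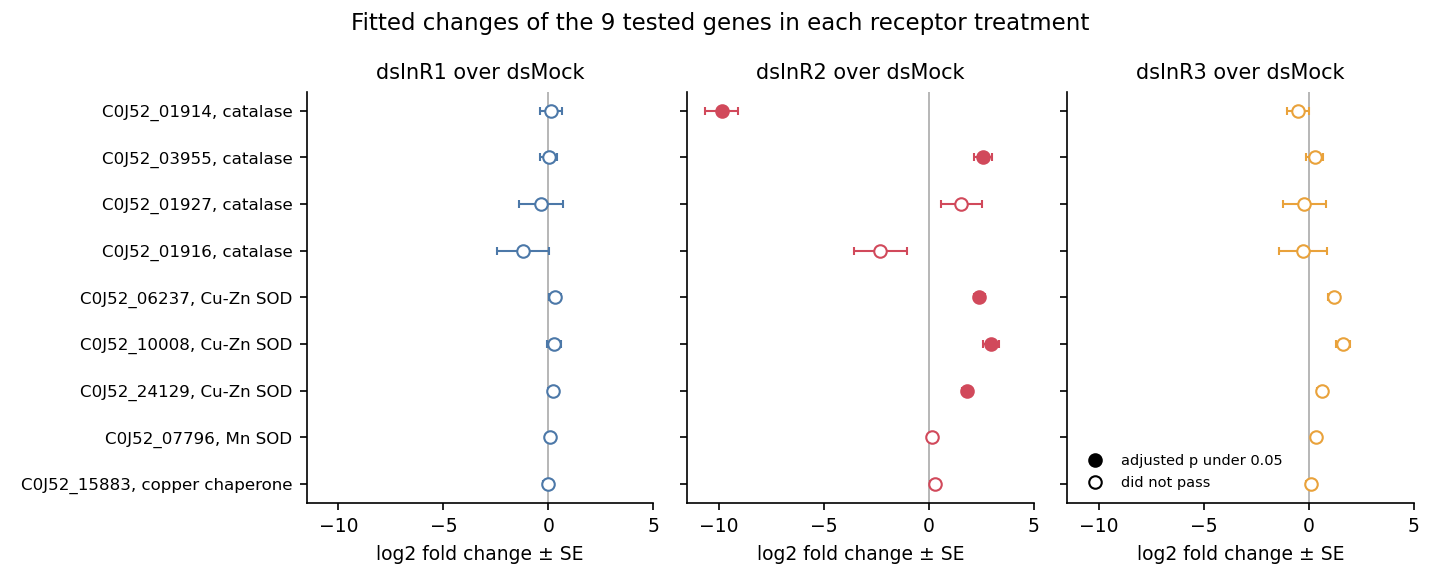
Fitted log2 fold changes over dsMock (± SE) of the 9 tested genes in dsInR1, dsInR2 and dsInR3, with filled points for an adjusted p under 0.05. In dsInR2, 5 points are filled, from -9.86 for C0J52_01914 to 2.98 for C0J52_10008, and none in dsInR1 or dsInR3.

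The receptor treatments were also tested against each other, since a call in one and not in another does not show that they differ. In dsInR2 against dsInR1, 5 of the 9 genes were called, where 31.1% of all tested genes were called. Of these, 4 were higher (16.8% of all tested genes) and 1 was lower (14.3%). The log2 differences were -9.96 for C0J52_01914, 2.58 for C0J52_03955, 2.70 for Sod_1, 2.13 for Sod_0 and 1.60 for SODC. In dsInR2 against dsInR3, the same 5 genes were called, where 22.9% of all tested genes were called. There the differences were -9.34 for C0J52_01914, 2.30 for C0J52_03955, 1.34 for Sod_1, 1.20 for Sod_0 and 1.18 for SODC, with adjusted p-values from 2.46e-06 to 0.0108. C0J52_03955 was called although dsInR2 library 8, with 519 CPM, lay below dsInR3 library 3, with 574 CPM. In dsInR1 against dsInR3, none of the 9 was called, and 0% of all tested genes. At an unadjusted p under 0.05 there were 2, DESeq2 called 1 and limma-voom called 0. Over all 10536 tested genes, 970 had an unadjusted p under 0.05 and DESeq2 called 84. Sod_1 was lower in dsInR1 by a log2 difference of -1.36 without overlap (edgeR adjusted p = 0.274, DESeq2 adjusted p = 0.0188), and Sod_0 by -0.93 without overlap (edgeR adjusted p = 0.332), a pattern found in 3.31% of all tested genes. These comparisons share libraries with those against dsMock.

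Ordered by mean CPM, the tested Cu-Zn superoxide dismutases ran dsInR2, dsInR3, dsInR1 and dsMock, with SODC at 71.4 ± 25.9, 31.4 ± 2.33, 23.6 ± 4.73 and 20.0 ± 5.24 CPM in those groups (SD, n = 4 each). The step between dsInR2 and dsInR3 was called for each of these 3 genes, the step between dsInR3 and dsInR1 for none in edgeR, and dsInR1 and dsMock overlapped. For C0J52_01914 the order was dsInR1, dsMock, dsInR3 and dsInR2, and only the step to dsInR2 was called. For SOD2 the order was dsInR3, dsInR2, dsInR1 and dsMock, and no pair of groups was called. An F test of edgeR over the 4 groups called the same 5 genes, with adjusted p-values from 7.35e-06 for C0J52_01914 to 2.05e-04 for C0J52_03955.

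The members did not all vary together across the 16 libraries, which is described here by Pearson r of log2 CPM without a test. C0J52_01914 ran against C0J52_03955 (r = -0.85), Sod_0 (-0.85), Sod_1 (-0.84) and SODC (-0.82). Sod_1 ran with SODC (0.91), and SOD2 was little related to C0J52_01914 (-0.06) or C0J52_03955 (0.02). With the mean of each group removed, C0J52_01914 had r = 0.05 with C0J52_03955, -0.09 with Sod_0, -0.12 with Sod_1 and 0.59 with SODC, so the negative values over all libraries were near 0 or turned positive within groups. Sod_1 kept r = 0.79 with Sod_0 and had 0.49 with SODC. Within dsInR2, library 4 had the most C0J52_03955 and the least Sod_1, and library 1 had the most Sod_0 and Sod_1.

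Among the 4529 tested genes with an informative product name, those whose pattern over the 16 libraries was most like that of C0J52_01914 were wol (C0J52_12009, a dolichyl-phosphate glucosyltransferase, r = 0.99), the insulin receptor C0J52_14014 (0.99), mannose-1-phosphate guanyltransferase beta C0J52_00597 (0.98), the vesicle coat GTPase SAR1A (C0J52_17364, 0.98) and Hadh (C0J52_21156, 0.98). Each of these was also lowest in dsInR2, with wol at 41.7 ± 4.66 CPM in dsInR2 and 243 ± 8.20 CPM in dsMock (SD, n = 4 each). Group means were not removed for these values, so a shared step in dsInR2 can by itself give a high r. Shared control of the genes was not tested, and whether C0J52_14014 was itself targeted by the dsRNA could not be checked. Most like C0J52_03955 were beta-Spec (C0J52_00412, a membrane skeleton protein, 0.95), ENOSF1_0 (C0J52_00324, 0.95), ENOSF1_1 (C0J52_00323, 0.94), Nup107 (C0J52_01165, a nuclear pore protein, 0.94) and Gclc (C0J52_13225, the first enzyme of glutathione synthesis, 0.92). The size of a change does not enter r, and beta-Spec had only 529 ± 68.1 CPM in dsInR2 and 344 ± 15.9 CPM in dsMock. Most like SODC were the glycolytic Pgk (C0J52_19027, 0.96), TKTL1 (C0J52_15649, a transketolase-like protein of the pentose phosphate pathway, 0.95), ACO1 (C0J52_04694, cytoplasmic aconitase, 0.95), Galt (C0J52_03850, 0.95) and the glycolytic Pgi (C0J52_06841, 0.94).

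Genes next to the members on their contigs were examined because neighbours can share reads. Sod_1 (322840 to 326177 on contig PYGN01000536.1) lies entirely within the span of exportin-4, xpo4 (C0J52_10007, 276527 to 326184). Exportin-4 had 51.4 ± 4.02 CPM in dsInR2 and 40.9 ± 4.42 CPM in dsMock (log2 0.33, SE 0.10, adjusted p = 0.0183), a much smaller change than that of Sod_1. On its other side, the hypothetical protein C0J52_10009 fell, with 14.4 ± 4.54 CPM in dsInR2 and 24.3 ± 1.07 CPM in dsMock (log2 -0.75, SE 0.21, adjusted p = 0.0131). The hypothetical protein C0J52_24130, 1790 bases from SODC, rose with it, at 8.87 ± 4.37 CPM in dsInR2 and 1.78 ± 0.411 CPM in dsMock (log2 2.32, SE 0.59, adjusted p = 0.00675). Src64B (C0J52_03956), a tyrosine kinase gene 9718 bases from C0J52_03955, did not pass (log2 0.14, SE 0.17, adjusted p = 0.568). Neither did the angiotensin-converting enzyme gene C0J52_01917, 2189 bases from C0J52_01916 (log2 -1.36, SE 0.87, adjusted p = 0.257). The hypothetical proteins on either side of CCS did not pass either. They were C0J52_15882 (log2 0.11, SE 0.61, adjusted p = 0.912) and C0J52_15884 (log2 -0.12, SE 0.13, adjusted p = 0.537).

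The wider redox machinery was read through 14 lists of product names, holding 91 tested genes. In dsInR2 against dsMock, 42 of them were called, where 32.3% of all tested genes were called. In dsInR1 against dsMock, edgeR called 0 of the 91, with 2 at an unadjusted p under 0.05 and 0 called by DESeq2 or limma-voom. In dsInR3 against dsMock, edgeR called 0 of the 91 as well, but 22 had an unadjusted p under 0.05, DESeq2 called 9 and limma-voom called 1. Over all 10536 tested genes in that comparison, 1546 had an unadjusted p under 0.05, DESeq2 called 443 and limma-voom called 53. The smallest edgeR adjusted p among the 91 in dsInR3 was 0.0524, for Ddo. The values below are for dsInR2 against dsMock as mean CPM ± SD of 4 libraries each. In that comparison 17.6% of all tested genes were called higher and 14.7% lower. A list whose counts lie near these shares is not set apart from all tested genes by them.

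Among the other enzymes that remove peroxide, 4 of 8 tested glutathione peroxidases and peroxiredoxins rose and none fell (median log2 0.89, against 0.04 over all tested genes). PRDX6_1 (C0J52_15309, a peroxiredoxin 6) had 662 ± 54.5 CPM in dsInR2 and 77.4 ± 26.6 CPM in dsMock (log2 3.10, adjusted p = 5.24e-05). Jafrac1 (C0J52_09154, peroxiredoxin 1) had 457 ± 163 CPM in dsInR2 and 84.8 ± 27.3 CPM in dsMock (log2 2.43, adjusted p = 6.85e-05). PRDX5 (C0J52_07591) had 72.6 ± 14.5 CPM in dsInR2 and 37.5 ± 6.07 CPM in dsMock (log2 0.95, adjusted p = 0.00159). The thioredoxin system hands electrons to peroxiredoxins. It was read through 12 tested genes with thioredoxin or glutaredoxin in their product name, a pattern that also takes in genes outside this route. Of these, 1 rose, 3 fell and 8 did not pass. TXN2 (C0J52_04245, thioredoxin) was the one that rose, at 47.0 ± 19.7 CPM in dsInR2 and 14.8 ± 2.73 CPM in dsMock (log2 1.67). The endoplasmic reticulum protein prtp (C0J52_21910, log2 -0.84) and Txnl1 (C0J52_10617, log2 -0.54) fell. Among those that did not pass were Trx-2_0 (C0J52_05884, thioredoxin-2, log2 0.11, adjusted p = 0.591) and thioredoxin reductase Trxr-1 (C0J52_02383, log2 0.22, adjusted p = 0.240), both named after their values were seen.

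Genes that make and use glutathione follow. Of the 3 tested genes of glutathione synthesis, Gclc rose, at 23.9 ± 6.07 CPM in dsInR2 and 7.90 ± 1.40 CPM in dsMock (log2 1.60, adjusted p = 7.11e-05), and glutathione synthetase gss (C0J52_09447) did not pass (log2 -0.06). Of 13 tested glutathione S-transferases, 8 rose and 1 fell (median log2 1.95). GstD1_7 (C0J52_18338) had 114 ± 40.6 CPM in dsInR2 and 15.6 ± 2.35 CPM in dsMock (log2 2.87), and Mgst1 (C0J52_17290) had 304 ± 61.4 CPM in dsInR2 and 78.5 ± 14.8 CPM in dsMock (log2 1.95). GstD1_1 (C0J52_18339) had 34.3 to 465 CPM in dsInR2 and 2.38 to 4.43 CPM in dsMock (log2 5.49). The 1 that fell, GstD1_3 (C0J52_20857), named here after its values were seen, was at 0 in dsInR2 and had at most 1.48 CPM in dsMock, and its call was lost in 6 of the 8 analyses that left out a library and with limma-voom. Reads from these similarly named and partly adjacent genes may have been divided between copies.

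NADPH, the reductant that both thiol systems draw on, is regenerated by enzymes of which 3 of 7 tested rose and 2 fell (median log2 0.45). Glucose-6-phosphate dehydrogenase ZW (C0J52_09260), the entry to the pentose phosphate pathway, had 155 ± 101 CPM in dsInR2 and 18.1 ± 4.13 CPM in dsMock (log2 3.10, adjusted p = 1.33e-04). PGD (C0J52_02417), which catalyses a later step of that pathway, had 361 ± 146 CPM in dsInR2 and 104 ± 14.6 CPM in dsMock (log2 1.80), and malic enzyme ME1_1 (C0J52_05449) rose by 1.92 with overlapping libraries. The 2 that fell were mitochondrial, IDH2 and NNT, named after their values were seen, and neither stayed called when dsInR2 library 1, 4 or 8 or dsMock library 3 or 4 was left out. Of 3 methionine sulfoxide reductases, which repair oxidised methionine, only MSRB3 (C0J52_08024) was called (log2 -1.10), and not without dsInR2 library 1 or 8 or dsMock library 3. Eip71CD_1 (C0J52_05907), the one with the highest mean CPM, did not pass (log2 -2.02, adjusted p = 0.0904).

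Peroxisomes, where catalase works, were read through peroxins and through the oxidases that make hydrogen peroxide there. Of 9 genes of peroxisome biogenesis and membrane, 1 rose and 2 fell (median log2 0.14). The membrane carrier SLC25A17 (C0J52_12353) rose (log2 1.05), and PEX11G (C0J52_02818, log2 -1.70) was among those that fell. Of 9 peroxisomal oxidases, 1 rose and 3 fell (median log2 -0.24). D-aspartate oxidase Ddo (C0J52_05345) had 0.698 ± 0.164 CPM in dsInR2 and 19.8 ± 7.34 CPM in dsMock (log2 -4.80, adjusted p = 3.36e-06). A second D-aspartate oxidase, DDO_1 (C0J52_05348, log2 -2.28), and the acyl-CoA oxidase Acox3 (C0J52_14461, log2 -1.14) fell too. A further D-aspartate oxidase, DDO_0 (C0J52_11000), did not pass, at 55.2 ± 11.2 CPM in dsInR2 and 65.4 ± 11.9 CPM in dsMock. The acyl-CoA oxidase C0J52_25426 was the 1 that rose (log2 0.85), but not without dsInR2 library 1 or dsMock library 5. Both were named after their values were seen.

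Among 4 other producers of superoxide or peroxide, 1 rose and 2 fell. Dual oxidase, Duox (C0J52_05752), had at most 0.728 CPM in dsInR2 and 1.17 to 30.9 CPM in dsMock (log2 -4.69, adjusted p = 0.00269), a call that limma-voom did not make (adjusted p = 0.174), and without dsMock library 1 the change was -2.86. Xanthine dehydrogenase XDH_1 (C0J52_21541) fell (log2 -1.29). The sulfhydryl oxidase Gfer (C0J52_05931) rose by 1.84. Its call was lost without dsInR2 library 1 or 4 or dsMock library 1, 3 or 4. With 1 library left out, its change stayed between 1.45 and 2.10. Neither of the 2 tested heme peroxidases passed (Pxn_1, C0J52_11852, log2 0.44, adjusted p = 0.0647). Of 5 regulators that respond to oxidative stress, foxo_1 (C0J52_24290), a forkhead factor, had 73.4 ± 12.5 CPM in dsInR2 and 110 ± 13.9 CPM in dsMock (log2 -0.59, adjusted p = 0.00617). The Nrf2 relative cnc (C0J52_14085), a regulator of antioxidant genes in Drosophila, did not pass (log2 0.17, adjusted p = 0.467).

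The supply of cofactors was read through heme synthesis, iron and copper genes. Of 9 tested genes of heme synthesis, the pathway that makes the prosthetic group of catalase, 5 fell and none rose (median log2 -0.56). The count of genes that fell was 3 when dsInR2 library 4 or 7 or dsMock library 4 was left out. 5-aminolevulinate synthase alas2 (C0J52_09535), the first enzyme of the pathway, had 22.5 ± 12.7 CPM in dsInR2 and 222 ± 18.0 CPM in dsMock (log2 -3.30, adjusted p = 1.94e-05). Ferrochelatase FeCh (C0J52_19862), which inserts the iron, fell by 0.82 on the log2 scale. In dsInR2 against dsInR1, 5 of the 9 fell as well, where 14.3% of all tested genes fell, and in dsInR2 against dsInR3, 8 of the 9 fell, where 11.3% of all tested genes did. Of 3 tested iron genes, transferrin TRF (C0J52_08590) rose with overlapping libraries, at 712 to 28838 CPM in dsInR2 and 282 to 994 CPM in dsMock (log2 4.86), and the ferritin subunit FERH (C0J52_10137) did not pass (log2 0.54, adjusted p = 0.0563). Of 4 tested copper carriers, the copper importer SLC31A1 (C0J52_03923) fell, at 75.2 ± 22.3 CPM in dsInR2 and 133 ± 22.4 CPM in dsMock (log2 -0.82, adjusted p = 0.00336), and the copper carrier ATOX1 (C0J52_12008) did not pass (log2 -0.14).

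**Figure D5:**
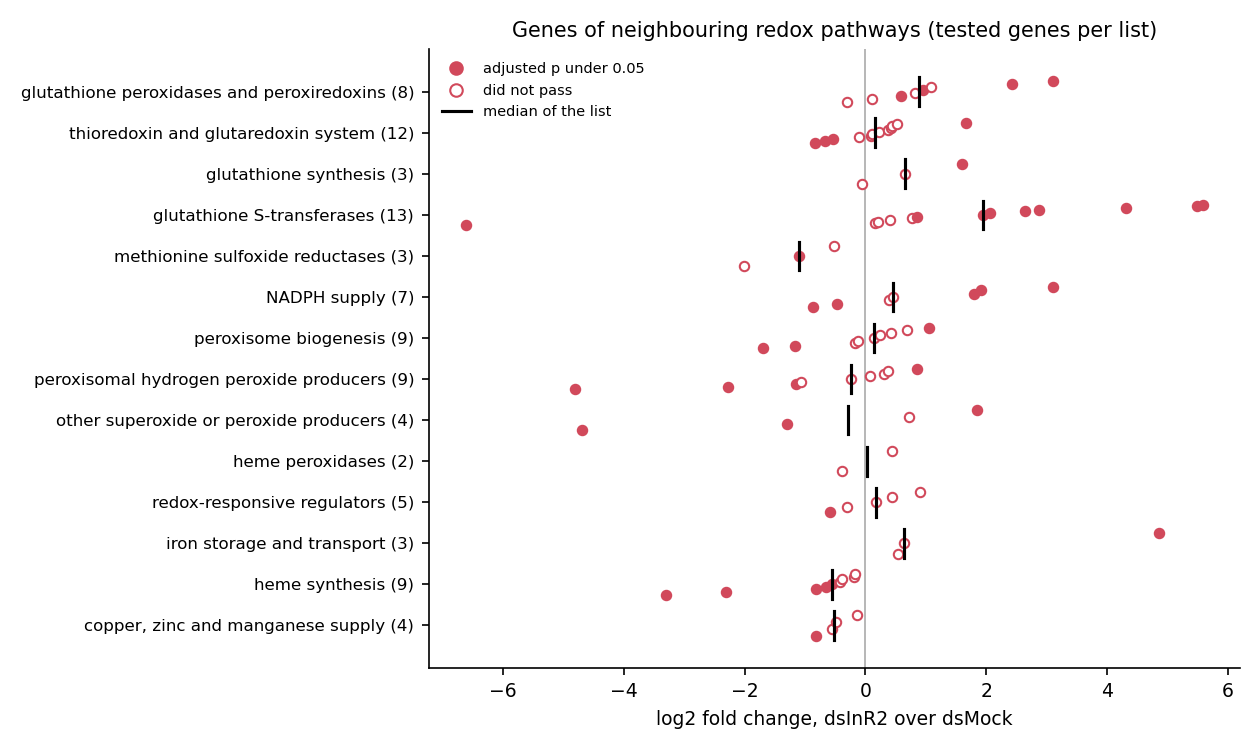
Log2 fold changes in dsInR2 over dsMock of the 91 tested genes of 14 redox-related lists, with the number of genes in parentheses, filled points for an adjusted p under 0.05 and a black bar at each list's median. Medians run from -1.10 for the 3 methionine sulfoxide reductases to 1.95 for the glutathione S-transferases, and the 9 heme synthesis genes all lie below 0.

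The tissue label was checked against markers. The 4 fat body markers summed to 59138 to 105154 CPM in dsInR2, 22564 to 34208 CPM in dsInR1, 27563 to 33870 CPM in dsInR3 and 22892 to 37507 CPM in dsMock; in dsInR2, 2 of them rose and 1 fell, and transferrin is one of the list. Markers of other cell types were also summed. Those of hemocytes (11 genes) summed to 201 to 466 CPM in dsInR2 and 271 to 306 CPM in dsMock, and those of muscle (18 genes, 1 without reads) to 175 to 364 CPM in dsInR2 and 155 to 260 CPM in dsMock. Ovary and germline markers (6 genes) summed to 75.3 to 124 CPM in dsInR2 and 95.1 to 166 CPM in dsMock, and gut and Malpighian tubule markers (21 genes, 7 without reads) to 114 to 220 CPM in dsInR2 and 107 to 233 CPM in dsMock. Nervous tissue markers (20 genes, 5 without reads) summed to 33.4 to 41.2 CPM in dsInR2 and 34.0 to 39.8 CPM in dsMock, and epidermis and trachea markers (40 genes, 25 without reads) to 3.82 to 16.9 CPM in dsInR2 and 1.74 to 4.86 CPM in dsMock. Among tested markers in dsInR2 against dsMock, 1 of 8 rose and 1 fell for hemocytes, and 1 of 16 rose and 0 fell for muscle. For ovary and germline 1 of 4 rose and 2 fell, and for gut and Malpighian tubule 3 of 7 rose and 1 fell. For nervous tissue 2 of 12 rose and 0 fell, and for epidermis and trachea 1 of 2 rose and 0 fell. Over all tested genes, 17.6% rose and 14.7% fell. The part of these cell types in the changes of the catalases and superoxide dismutases was not tested.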

How the data were processed

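Fat body RNA was made into stranded, poly(A)-selected libraries and sequenced, per the labels' protocols. The values used are read counts per gene, deposited by the authors as whole numbers without normalization. The deposited table holds 32 further per-library columns (TPM and FPKM) that were not used, since columns could be tied to groups but not to single samples; levels of different genes were therefore not compared per length. The submitters' processing notes name FastQC, Trimmomatic, HISAT2 and StringTie, and give no settings, strand option or rule for reads matching several genes. Library numbers in the text are those of the column names, which are not the replicate numbers of the labels. Control columns are named for polyhedrin; dsMock was the one group without a column of its own name.

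Counts were tested with edgeR 4.0.16 in R 4.3.3, using TMM scaling, filterByExpr (10536 genes kept), 1 coefficient per group over 16 libraries and the two-sided quasi-likelihood test. Benjamini-Hochberg adjustment covered all tested genes, and 0.05 was the threshold. Intervals are 95% confidence intervals of the log2 difference. Single genes were also tested by exact two-sided permutation of log2 CPM (prior count 2), for which 0.0286 is the smallest p. Alternatives were other scalings and filters, DESeq2 1.42.0, limma-voom (limma 3.58.1), only the 2 groups compared, the most abundant gene left out, each library left out and, added after seeing the data, the library number of the column names as a block. The edgeR code was tested on simulated data.

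All 28676 locus tags matched a reference annotation of the Bger_1.1 assembly, which supplied coordinates; product names were not checked by sequence. The members, the 14 lists and the markers are patterns of product names, chosen with earlier results of these data known. After values were seen, 3 patterns were narrowed because they caught unrelated names ("transferring", "disintegrin", protease "inhibitor"). Named are every member, up to 3 called genes per list with the smallest adjusted p, the uncalled gene of highest mean CPM where a list had fewer, the 5 genes most like each of 3 abundant members, contig neighbours and the gene with the most reads. Values of 2 list genes that this rule picks are not reported here. No set test was run.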

Additional observations from a re-analysis of the deposited data

Results flagged for a closer look

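Each of the 9 tested genes was checked in each group of 4 libraries for a library far from the others on the log2 scale, which chance alone produces in about 1 in 20 groups, and 3 of 36 groups held one. Catalase C0J52_01914 was at 6780 CPM in dsInR1 library 2, below the other dsInR1 libraries, which had 11231 to 12448 CPM. Sod_0 (C0J52_06237) was at 12.1 CPM in dsInR2 library 1, above the other dsInR2 libraries, which had 7.10 to 7.19 CPM. Catalase C0J52_01916 was at 0 CPM in dsMock library 4, where the other dsMock libraries had 0.559 to 0.839 CPM. Without the library in question, the calls of the first of these genes in dsInR1 and of Sod_0 in dsInR2 did not change.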

How the results depend on the processing

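The 15 called results of members kept their direction in all 17 alternatives of each comparison, and their call in all except the 3 named below under the replicate block; for C0J52_01914 in dsInR2 against dsMock the log2 change ran from -10.66 to -9.54, with adjusted p-values up to 4.00e-04. The columns carry library numbers, not the replicate numbers of the labels, and nothing says that they pair libraries. Over 10 pairs of libraries of different groups with the same number, deviations from the group means correlated at -0.13 to 0.15, against -0.18 to 0.22 over 86 pairs with different numbers. An edgeR fit with the library number as a replicate block, chosen after seeing the data and leaving 5 residual degrees of freedom, called 2552 genes and the same 5 members in dsInR2 against dsMock, 1058 genes and 5 members in dsInR2 against dsInR1, 816 genes and 2 members in dsInR2 against dsInR3 (Sod_0, Sod_1 and SODC were not called, adjusted p = 0.130, 0.137 and 0.0684), and 1 gene and 0 members in dsInR3 against dsMock. dsInR1 library 2 and dsInR2 library 8 share their number with no other library and so add nothing to the group differences of that fit. Scaling moved the median of all genes by at most 0.04. For dsInR3 against dsMock, 32 genes were called, against 74 with upper-quartile scaling, 17 without a filter, 443 with DESeq2, 53 with limma-voom, 12 with only the 2 groups compared and 0 to 147 with 1 library left out; members called were 1 with upper-quartile scaling, 2 with DESeq2, 1 with limma-voom and 0 to 2 with 1 library left out. DESeq2 called 7 genes in dsInR1 against dsMock, and 84 genes and 1 member in dsInR1 against dsInR3, where leaving out 1 library gave 0 to 1 genes. The causes were not tested.

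Signs turned only for uncalled genes. With the replicate block they were -0.63 for C0J52_01914, 0.11 for C0J52_15883 (both dsInR1 against dsMock), 0.10 for C0J52_01916 (dsInR3 against dsMock), -0.41 for C0J52_07796 (dsInR2 against dsInR1) and 0.66 for C0J52_01927 (dsInR1 against dsInR3). In dsInR1 against dsMock CCS (C0J52_15883) was 0.0018 with DESeq2 size factors, 2.4e-04 with DESeq2 and 0.0109 with limma-voom, and in dsInR1 against dsInR3 C0J52_01927 was 0.33 with limma-voom. With 1 library left out, ranges that crossed 0 in dsInR1 against dsMock were -1.15 to 0.0727 (C0J52_01927), -0.11 to 0.12 (C0J52_03955), -0.0786 to 0.17 (C0J52_07796) and -0.13 to 0.15 (C0J52_15883). In dsInR3 against dsMock they were -0.76 to 0.0801 (C0J52_01916), -2.13 to 0.19 (C0J52_01927), -0.0611 to 0.43 (C0J52_03955) and -0.0108 to 0.30 (C0J52_15883). In dsInR1 against dsInR3 they were -0.94 to 1.78 (C0J52_01927) and -0.42 to 0.0640 (C0J52_03955), in dsInR2 against dsInR1 -0.0038 to 0.21 (C0J52_07796), and for gss (C0J52_09447) in dsInR2 against dsMock -0.12 to 0.0015. In dsInR2 against dsInR3, C0J52_01927 passed without dsInR3 library 3 (3.70). That library held 32 of its reads, against 6, 0 and 0 in dsInR3 libraries 5, 6 and 7. Because the gene entered the test through its dsInR2 reads, no difference is read from this pass.

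List counts in dsInR2 against dsMock, recomputed in settings partly chosen after seeing the data, changed as follows. Glutathione S-transferases that fell were 0 without a filter, with limma-voom and with only 2 groups, and 0 to 1 with 1 library left out. Methionine sulfoxide reductases that fell were 2 with only 2 groups and 0 to 3 with 1 library left out. NADPH genes that fell were 0 without a filter, 1 with only 2 groups and 0 to 2 with 1 library left out. Other producers that rose were 0 without a filter and 0 to 1 with 1 library left out, and 1 fell with limma-voom. With DESeq2, 1 regulator and 3 iron genes rose. With 1 library left out, 0 to 1 regulators, 1 to 3 iron genes, 0 to 2 peroxisomal producers, 0 to 1 heme peroxidases and 1 to 2 thioredoxin genes rose, and 3 to 6 heme synthesis genes and 1 to 2 copper carriers fell. With the replicate block, 0 glutathione S-transferases, methionine sulfoxide reductases, NADPH genes and regulators fell, 1 other producer fell and 0 rose, and 1 regulator and 0 iron genes rose. The planned comparison of TPM with CPM was not run, because the TPM columns were not used.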
